A study of Homo sapiens with 12 samples.

Results

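IFNγ-treated U251 cells, an established human glioblastoma line, were compared between a stable line that carried a short hairpin RNA against the long noncoding RNA INCA1 (shINCA1) and a stable line that carried a control hairpin (shCTRL). The comparison was made on all genes of the deposited table, with 6 of the 12 libraries of the series: 3 shINCA1 and 3 shCTRL libraries, each from cells given interferon gamma for 24 h. The other 6 libraries, 3 of each line without IFNγ, served to show where the difference between the lines depended on the cytokine. All 4 groups were labelled U251 at passages 14 to 18, and they shared polyadenylated RNA selection with a stranded kit. The sources used here do not give the IFNγ dose, the hairpin sequences or whether a line was 1 clone or a pool. A difference between shINCA1 and shCTRL is therefore also a difference between 2 lines. The labels do not tell whether separate cultures stood behind the 3 libraries of a group. The p-values below therefore measure only how these libraries varied, which may be technical.

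Interferon gamma binds the receptor chains IFNGR1 and IFNGR2, which activate the kinases JAK1 and JAK2. These phosphorylate STAT proteins, which enter the nucleus as dimers and bind GAS elements. STAT dimers induce the transcription factor IRF1, and IRF proteins and complexes that hold STAT2 and IRF9 bind ISRE elements, so that genes induced early drive others. The targets include antigen presentation genes, guanylate-binding proteins, the T cell chemokines CXCL9, CXCL10 and CXCL11, the tryptophan-degrading enzyme IDO1 and the checkpoint ligand PD-L1, encoded by CD274. The study asked whether the noncoding RNA, made from the locus of CD274 and JAK2, takes part in this response of tumour cells.

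Promoter stretches of 6 interferon-responsive genes whose levels are described below are shown first, because they hold the letters that these factors are known to read. They come from RefSeq (GRCh38.p14), run 5′ to 3′ on the gene's strand, and lie within the 250 bases before the annotated start. Where a symbol had several promoter entries, the one listed first was taken, and other starts were not searched. Capitals mark a match to the ISRE core GAAANNGAAA or the GAS core TTCNNNGAA, searched on both strands, so an ISRE core can also appear as TTTCNNTTTC.
CD274, chr9:5450319-5450440, plus strand: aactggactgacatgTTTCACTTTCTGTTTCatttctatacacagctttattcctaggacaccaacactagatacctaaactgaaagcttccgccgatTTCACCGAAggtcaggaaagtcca
PARP14, chr3:122680784-122680834, plus strand: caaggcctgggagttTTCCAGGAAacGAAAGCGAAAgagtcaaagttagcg
IFITM1, chr11:313985-314039, plus strand: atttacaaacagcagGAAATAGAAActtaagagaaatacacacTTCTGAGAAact
GBP1, chr1:89065311-89065350, minus strand: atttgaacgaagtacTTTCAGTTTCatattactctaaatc
CXCL10, chr4:76023694-76023733, minus strand: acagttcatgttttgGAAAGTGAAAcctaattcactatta
IRF1, chr5:132490874-132490912, minus strand: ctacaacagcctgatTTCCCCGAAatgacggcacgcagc
The CD274 stretch held 2 overlapping ISRE cores and 1 GAS core, those of PARP14 and IFITM1 held 1 of each, those of GBP1 and CXCL10 held 1 ISRE core, and that of IRF1 held 1 GAS core. An ISRE core stood in 839 of 27305 RefSeq promoters of this length (3.07%), a GAS core in 1850 (6.78%) and both in 79 (0.289%). A match is a description of the letters and not a measured binding site.

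The 6 libraries held 49088148 to 65663147 estimated counts, against 46525032 to 66242859 over all 12. Of 27685 genes in the table, 15769 passed the low-count filter and were tested. Libraries of 1 group had correlations of log2 levels of 0.9957 to 0.997, and the lines treated with IFNγ had 0.9698 to 0.9708. Levels are given in CPM, the counts of a gene relative to the scaled library total, and CPM of different genes cannot be compared because they are not divided by gene length. The level of the targeted noncoding RNA was not analysed here, so the hairpin labels were not checked on it. A protein-coding gene of chromosome 17 that shares the name INCA1 was at 0.208, 0.125 and 0.0997 CPM in the shCTRL libraries and 0.331, 0.102 and 0.167 CPM in the shINCA1 libraries with IFNγ. Its ranges overlapped, and it did not pass the test (0.50 ± 0.57, edgeR adjusted p = 0.479).

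With IFNγ, 4762 genes (30.2% of those tested) were lower and 4529 (28.7%) were higher in shINCA1 than in shCTRL by edgeR's quasi-likelihood test at a Benjamini-Hochberg adjusted p below 0.05. Together they made up 9291 genes (58.9%), and these shares are the background for every list below. Most of these differences were small: 5518 of the 9291 (59.39%) were under 1.5-fold, and the median over all tested genes was -0.00122 on the log2 scale. At 2-fold or more, 973 genes (6.17%) were lower and 1097 (6.96%) were higher. At 4-fold or more there were 510 and 447. The 3 shINCA1 libraries all lay below the 3 shCTRL libraries in 5335 genes (33.8%) and all above them in 5149 (32.7%).

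**Figure D1:**
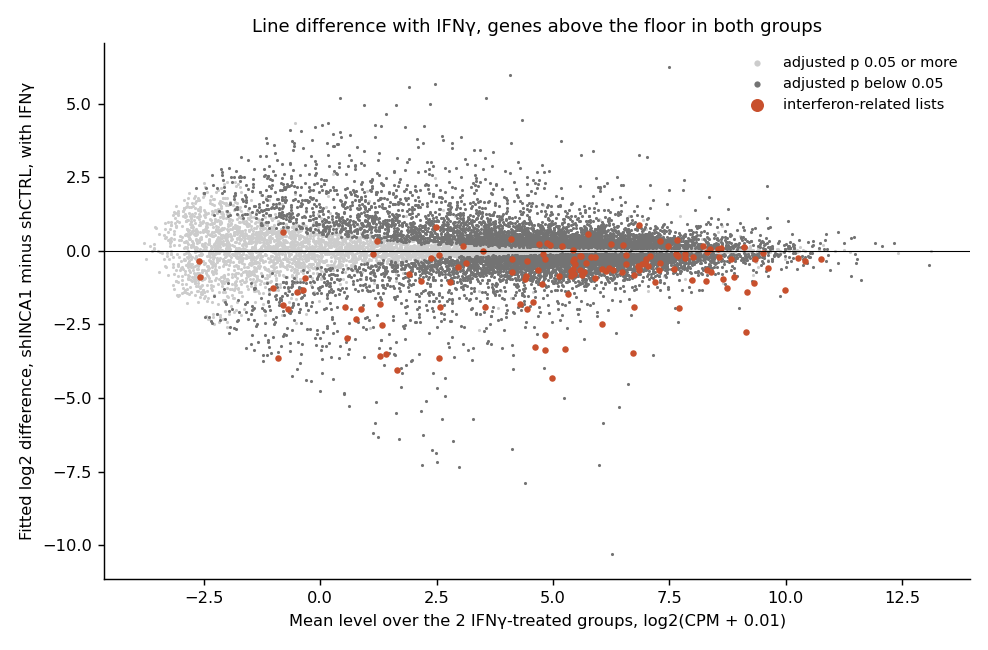
Each point is 1 tested gene with both group means above the floor of 3 counts per library (15231 genes); the x axis is the mean level over the 2 IFNγ-treated groups as log2(CPM + 0.01) and the y axis is the fitted log2 difference, shINCA1 minus shCTRL, with IFNγ. Dark grey points had an adjusted p below 0.05, and orange points are 136 genes of the interferon-related lists, most of which lie below 0.

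The genes of the interferon pathway were mostly lower in the shINCA1 line. Over 9 lists of receptors and kinases, feedback regulators, IRF factors, antiviral genes, guanylate-binding proteins, APOL genes, antigen presentation and the proteasome, 138 genes were tested. Of these, 103 (74.6%) were lower and 15 (10.9%) were higher, with a median log2 difference of -0.63 beside -0.00122 over all tested genes. The same 138 genes without IFNγ had a median of -0.24, with 68 lower and 25 higher, against 29.5% lower and 27.4% higher over all genes tested without IFNγ. In bulk RNA, fewer cells that respond and less RNA per cell cannot be told apart.

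Of the receptor chains, JAK kinases and STATs, 10 of 15 tested genes were lower, 1 was higher and 4 did not pass, with a median of -0.65. JAK2, whose gene lies near CD274 on chromosome 9, was at 58, 59.9 and 57 CPM in shCTRL and 19.9, 22.4 and 21.4 CPM in shINCA1. Every shINCA1 library was below every shCTRL library, with a log2 difference of -1.46 ± 0.08 (SE, edgeR adjusted p = 1.75e-08). Without IFNγ the difference was -0.42, and the test of the change gave -1.04 ± 0.11 (edgeR adjusted p = 5.27e-04). JAK1, the partner kinase, differed by -0.67 ± 0.04 from 142 CPM, and IFNAR1, a chain of the type I interferon receptor, by -0.93 ± 0.04 from 78 CPM. STAT2, which joins IRF9 in an ISRE-binding complex, differed by -0.67 ± 0.07. IFNGR1, the ligand-binding chain of the IFNγ receptor, was at 60.1, 57.5 and 57.7 CPM in shCTRL and 36.4, 38.6 and 36.7 CPM in shINCA1 (-0.65 ± 0.05). IFNGR1 lies on chromosome 6, whose genes were lower as a whole, and it stood at -0.05 against the median of its neighbours (25 tested genes on each side). IFNGR2, the signalling chain, had means of 28.8 and 26.7 CPM and did not pass (edgeR adjusted p = 0.0762). The kinase TYK2 was higher (0.19 ± 0.07), but it stood at 0.07 against its neighbours and was not called there, nor without shCTRL IFNγ replicate 2 or 3 or shINCA1 IFNγ replicate 1 or 2 (edgeR adjusted p up to 0.115). STAT3 was at 393, 383 and 241 CPM in shCTRL, with 1 library well below the other two, and at 169.7, 175 and 168 CPM in shINCA1.

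Negative regulators of JAK-STAT signalling did not move one way: 7 of 15 were higher and 6 were lower, with a median of 0.06. SOCS1, the inhibitor of JAK kinases that IFNγ induces, was at 9.94, 8.76 and 9.39 CPM in shCTRL and 2.42, 2.63 and 2.44 CPM in shINCA1. Its difference was -1.90 ± 0.17 with IFNγ (edgeR adjusted p = 1.17e-06) and 0.14 without it, where the means were 0.26 and 0.283 CPM. SOCS4, on chromosome 14, was higher (0.56 ± 0.04), as was the phosphatase PTPN1 (0.35 ± 0.03), and the phosphatase PTPN2 was lower (-0.28 ± 0.05). Against neighbours these 3 stood at 0.14, 0.07 and -0.14, and PTPN1 was no longer called. CISH, another SOCS family member, differed by -0.56 ± 0.09.

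Of the IRF and related transcription factors, 8 of 11 were lower and 1 was higher, with a median of -0.63. IRF1, which IFNγ induces early, was at 938, 931 and 941 CPM in shCTRL and 632, 632 and 620.5 CPM in shINCA1. The groups were far apart relative to their spread, although the difference of -0.58 ± 0.05 (edgeR adjusted p = 9.59e-07) was under 1.5-fold when given as a ratio of means (1.49). IRF9 differed by -0.63 ± 0.10 and IRF2, a factor that competes with IRF1, by -0.66 ± 0.09 (-0.31 against its neighbours). ETV7, an interferon-induced ETS factor, was at 16.2, 13.6 and 13.9 CPM in shCTRL and at 0, 0 and 0.0556 CPM in shINCA1. This was nearly all or nothing, with a ratio of 773 (95% exact interval 264 to 3753) in favour of shCTRL. Counting intervals of this kind are too narrow, because low values of the table pile up at multiples of 3. BATF2, a factor that IFNγ induces, was at 9.31 and 4.48 CPM (-1.05 ± 0.25), SP110 differed by -0.62 ± 0.05 and SP140L by -0.82 ± 0.04. IRF5 was the higher member, at 4.11 and 7.17 CPM (0.80 ± 0.12).

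Antiviral interferon-stimulated genes were lower nearly throughout. Of 40 tested, 34 were lower, 2 were higher and 4 did not pass, with a median of -0.92, and 18 were lower by 2-fold or more. Without IFNγ the median was -0.59, with 22 lower and 5 higher. IFITM1, a membrane protein that blocks viral entry, was at 51.4, 53.9 and 50.5 CPM in shCTRL and 5.51, 4.79 and 4.87 CPM in shINCA1. SAMD9L, which restricts translation in infected cells, was at 204, 192 and 186 CPM in shCTRL and 17.3, 17.8 and 18 CPM in shINCA1. Both lay far lower in shINCA1 with no overlap, at -3.36 ± 0.15 and -3.46 ± 0.17 (edgeR adjusted p = 3.67e-09 and 7.37e-09). IFIT3, of the RNA-sensing IFIT family, was at 169, 172 and 164 CPM and 44, 45.2 and 45.3 CPM, a difference of -1.91 ± 0.09. PARP14, an ADP-ribosyltransferase with both cores in its promoter above, was at 606, 608 and 589 CPM and 239.8, 256 and 260.3 CPM, a difference of -1.25 ± 0.04. The nearby PARP9, which works with the ubiquitin ligase DTX3L, differed by -0.67 ± 0.07. In the same direction were the RNA sensor IFIH1 (-0.87), the oligoadenylate synthetase OAS3 (-0.43), the ubiquitin-like ISG15 (-0.69), the virion tether BST2 (-1.81), the ubiquitin ligase TRIM22 (-2.87), XAF1 (-3.56), CMPK2 (-3.52) and IFI44L (-3.63). Members of one family could differ in direction: IFITM3 went from 18.5 to 4.88 CPM (-1.92 ± 0.19), while IFITM2 went from 81.9 to 149.6 CPM (0.87 ± 0.05). Reads of these near-identical genes are uncertain, since the counting step could split them. HERC5, the ligase that attaches ISG15, was the other higher member (0.28 ± 0.06), and MX1, IFI27 and HERC6 were among those that did not pass.

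The guanylate-binding proteins, GTPases that act against intracellular pathogens, were much lower in shINCA1 for 4 members. Of 6 tested, 4 were lower and 1 was higher, with a median of -1.64. GBP1 was at 997, 995 and 958 CPM in shCTRL and 141, 143 and 149 CPM in shINCA1, a difference of -2.77 ± 0.09 (edgeR adjusted p = 3.10e-10). GBP5 was at 1466, 1469 and 1446 CPM and 574, 571 and 581 CPM (-1.34 ± 0.03), a smaller step. GBP2 was at 340.1, 334 and 319.5 CPM and 87.8, 84.2 and 87.2 CPM (-1.94 ± 0.03). GBP4 was listed at 0 in every untreated library of both lines and reached 110.4, 119.6 and 109 CPM in shCTRL and 21, 19 and 20.5 CPM in shINCA1 with IFNγ (-2.49 ± 0.06). GBP3 lies in the same chromosome 1 cluster and was slightly higher, from 168 to 188 CPM (0.16 ± 0.05), a call that was lost without shCTRL IFNγ replicate 1 or 3 or shINCA1 IFNγ replicate 3 (edgeR adjusted p up to 0.0856). The family's members share sequence, so their counts are uncertain where reads could be split.

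All 5 tested APOL genes, a cluster of lipid-binding proteins on chromosome 22 that interferon induces, were lower, with a median of -3.26. APOL1, the trypanosome lytic factor, was at 43.7, 46.3 and 43.1 CPM in shCTRL and 4.51, 4.65 and 4.7 CPM in shINCA1 (-3.26 ± 0.07). APOL3 went from 60.03 to 3.01 CPM (-4.32 ± 0.17) and APOL4 from 69.7 to 6.82 CPM (-3.35 ± 0.17). APOL2 showed the smallest step, from 421 to 253 CPM (-0.73). APOL6 came next, at 413, 427 and 419 CPM against 211, 203 and 205 CPM (-1.02 ± 0.05). Without IFNγ the means of APOL6 were 7.58 and 0.763 CPM (-3.30). The log2 line difference of APOL6 was thus smaller with the cytokine, by a test of the change of 2.28 ± 0.10 (edgeR adjusted p = 2.08e-07). APOL2 changed the other way. Without IFNγ its means were 28.7 and 28.1 CPM (-0.03), and the test of the change gave -0.70 ± 0.07 (edgeR adjusted p = 2.21e-04). The median of the 5 genes without IFNγ was -3.84, and 4 of them were lower there.

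**Figure D2:**
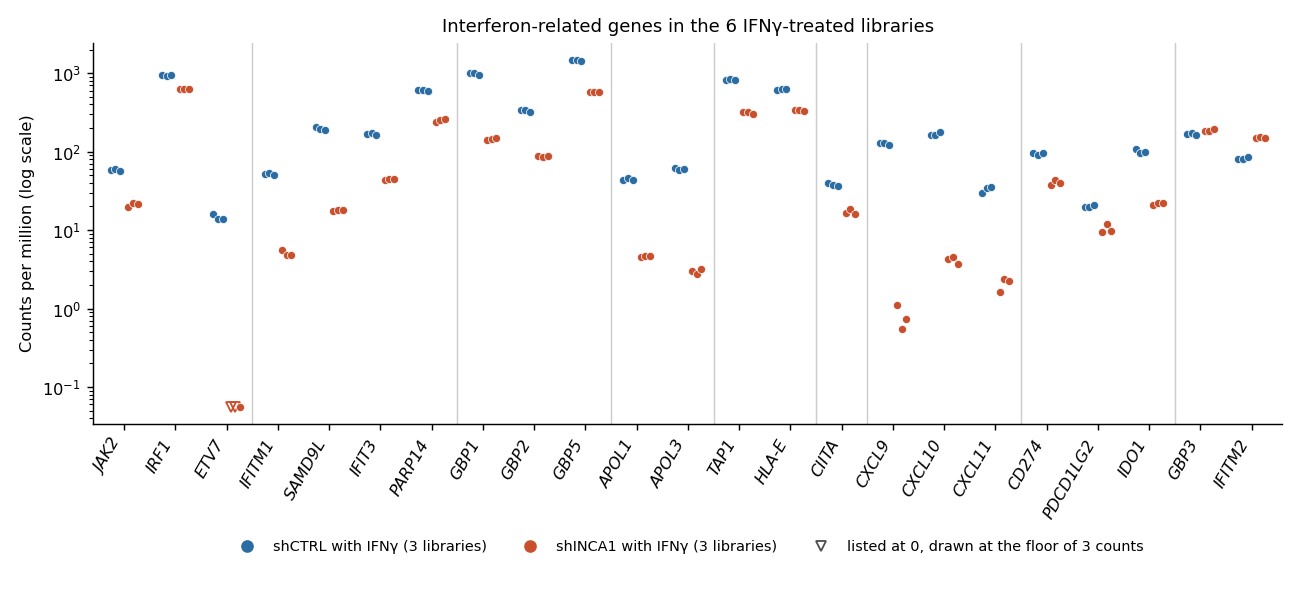
Each point is 1 IFNγ-treated library and each column 1 gene, with blue for shCTRL and orange for shINCA1 and with CPM on a log axis; open triangles are libraries listed at 0, drawn at the floor of 3 counts. In 21 of the 23 genes every shINCA1 point lies below every shCTRL point, and GBP3 and IFITM2, at the right, show the other order. The genes were chosen by hand with their values known. Over all tested genes, the shINCA1 libraries lay wholly below in 33.8% and wholly above in 32.7%.

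Class I antigen presentation was on the same side: 15 of 16 tested genes were lower, none was higher and HLA-C did not pass, with a median of -0.48. TAP1, a subunit of the transporter that carries peptides into the endoplasmic reticulum, was at 823, 837 and 826 CPM in shCTRL and 323, 319.96 and 303 CPM in shINCA1 (-1.39 ± 0.03, edgeR adjusted p = 1.80e-11). Without IFNγ the lines had 18.9 and 15.5 CPM (-0.29). HLA-E, a nonclassical heavy chain, was at 607, 626 and 622 CPM and 339, 337 and 326 CPM (-0.89 ± 0.04). TAP2 differed by -0.96 ± 0.05, the loading factor TAPBP by -1.06 ± 0.05, its relative TAPBPL by -1.90 ± 0.28, and HLA-B by -0.86 ± 0.08. The common light chain B2M, on chromosome 15, differed less (-0.29 ± 0.03), as did NLRC5, the transactivator of class I genes (-0.51 ± 0.07). Because 8 of the 16 lie on chromosome 6, the differences were also taken relative to neighbouring genes: 13 were then lower and 1 was higher, with a median of -0.38. TAP1 then stood at -0.68, HLA-E at -0.38, TAP2 at -0.25, TAPBP at -0.38 and HLA-B at -0.32. B2M and NLRC5 stood at -0.66 and -0.66, so there they differed by more than HLA-E, TAP2, TAPBP and HLA-B.

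For class II presentation, 8 of 10 tested genes were lower and none was higher, with a median of -1.24 with IFNγ. Without it 2 were lower and 3 were higher, among members that were mostly at low counts. CIITA, the master transactivator of class II genes, was listed at 0 in all untreated libraries and was at 39.3, 37.2 and 36.1 CPM in shCTRL and 16.5, 18.3 and 16.1 CPM in shINCA1 with IFNγ (-1.14 ± 0.07). CD74, the invariant chain, went from 3.77 to 1.06 CPM (-1.82 ± 0.20), and CTSS, the protease that trims it, from 5.89 to 0.35 CPM (-4.05 ± 0.26). IFI30, a lysosomal thiol reductase, was lower in shINCA1 with IFNγ (-0.60 ± 0.04) and higher without it (0.54 ± 0.04). The class II genes were low in these cells, and HLA-DRA and HLA-DRB1 did not pass. Taken relative to neighbours, 6 of the 10 were lower and none was higher (median -0.94).

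In the proteasome list, 13 of 20 were lower and 3 were higher, with a median of only -0.17. The inducible catalytic subunits PSMB8 and PSMB9, on chromosome 6, differed by -0.72 ± 0.04 and -0.86 ± 0.12, and stood at -0.01 and -0.15 against their neighbours, where neither was called. The activator subunits PSME1 and PSME2, on chromosome 14, were lower (-0.29 ± 0.04 and -0.40 ± 0.04). The constitutive subunits PSMB1 (-0.65 ± 0.02) and PSMA3 (0.36 ± 0.04) turned direction against their neighbours, at 0.19 and -0.12.

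The 3 chemokines that attract CXCR3-bearing T cells were almost lost in shINCA1. CXCL9 was listed at 0 in all untreated libraries and was at 130.5, 128 and 121 CPM in shCTRL and 1.1, 0.551 and 0.741 CPM in shINCA1 with IFNγ (-7.29 ± 0.17, edgeR adjusted p = 1.06e-08). CXCL10 was at 165, 163 and 176 CPM and 4.27, 4.59 and 3.74 CPM (-5.32 ± 0.13). CXCL11 was at 29.6, 34.8 and 35.7 CPM and 1.6, 2.37 and 2.24 CPM (-4.02 ± 0.16). As ratios of means the 3 genes were 159, 39.9 and 16.1 times lower in shINCA1. The chemokine list as a whole did not share this direction: 5 of 12 were lower and 3 were higher, with a median of -0.12. CXCL14, a chemokine of epithelia, was at 0.519, 0.533 and 0.847 CPM in shCTRL and 26.9, 21.9 and 20.6 CPM in shINCA1 (5.18 ± 0.17). CXCL8, a neutrophil attractant, went from 0.778 to 6.73 CPM (3.11 ± 0.17) and the membrane-bound CXCL16 from 27.3 to 61.5 CPM (1.17 ± 0.06). Among cytokines, 6 of 14 were lower and 5 were higher: the macrophage growth factor CSF1 differed by -0.69 ± 0.07 and IL15 by -0.98 ± 0.16, while LIF (1.62 ± 0.06), IL18 (1.34 ± 0.06) and TGFB2 (0.72 ± 0.06) were higher.

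Checkpoint ligands and immunosuppressive enzymes were mostly lower: 13 of 17 tested genes were lower and 3 were higher, with a median of -0.77, and 7 were lower by 2-fold or more. CD274, which encodes PD-L1, was at 96.9, 91.6 and 97 CPM in shCTRL (95.2 ± 3.12, mean ± SD, n = 3) and 37, 42.9 and 40.2 CPM in shINCA1 (40.1 ± 2.95). Its log2 difference was -1.25 ± 0.10 (SE, edgeR adjusted p = 6.23e-07), a ratio of means of 2.38. Without IFNγ, CD274 was at 6.69 and 2.16 CPM (-1.62 ± 0.13), and the line difference was not called as changed by the cytokine (edgeR adjusted p = 0.406). PDCD1LG2, which encodes PD-L2, was at 19.6, 19.5 and 20.9 CPM and 9.45, 11.9 and 9.76 CPM (-0.95 ± 0.15, edgeR adjusted p = 1.80e-04). Whether counting used strand is not stated, so reads of a noncoding RNA of this locus could have entered these counts. IDO1, which degrades tryptophan, was listed at 0 without IFNγ and was at 108, 97.3 and 97.8 CPM in shCTRL and 20.9, 22.4 and 22.1 CPM in shINCA1 with it (-2.21 ± 0.06). The next enzymes of tryptophan breakdown differed in direction, KYNU being lower (-3.02 ± 0.34) and KMO higher (1.29 ± 0.47). The call of KMO was lost when any of the 6 IFNγ libraries was left out (edgeR adjusted p up to 0.107). WARS, the tryptophanyl-tRNA synthetase, was at 1626, 1620.1 and 1552 CPM and 1188, 1172 and 1207 CPM with IFNγ (-0.43 ± 0.02), but without it the order was reversed, at 120.3 and 163 CPM (0.43 ± 0.02). NT5E, the enzyme that makes adenosine, was lower (-1.32 ± 0.12), as were TNFRSF14 (-2.41 ± 0.34), LGALS9 (-0.77 ± 0.11) and the phagocytosis inhibitor CD47 (-0.53 ± 0.05). Against neighbours NT5E stood at -0.62 and CD47 at -0.35. CD276, another B7 family ligand, was higher (0.40 ± 0.04) but stood at 0.03 against its neighbours and was not called there, where 1 gene of the list was higher in place of 3.

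Genes around CD274 on chromosome 9 did not move together. Of 17 tested genes of the segment, 5 were lower, 6 were higher and 6 did not pass, with a median of 0.05. JAK2, CD274 and PDCD1LG2 were lower, as given above, while the glycine-cleaving enzyme GLDC (0.91 ± 0.07) and the glutamate transporter SLC1A1 (0.74 ± 0.07) were higher. CDC37L1 differed by -0.41 ± 0.05, and the means of RCL1 (37.2 and 37.9 CPM), PLGRKT (22.6 and 21.8 CPM) and UHRF2 (39.2 and 40.4 CPM) did not differ past the threshold.

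Among cell death genes, 12 of 19 were lower and 5 were higher, with a median of -0.30 with IFNγ and -0.04 without. The death ligand TNFSF10, called TRAIL, was at 26.4, 24.9 and 26.6 CPM in shCTRL and 6.8, 5.42 and 5.56 CPM in shINCA1 (-2.13 ± 0.12). The death receptor FAS was at 35, 34.1 and 36.3 CPM and 16.6, 15.5 and 17.8 CPM (-1.08 ± 0.08), whereas without IFNγ it had 5.66 and 4.89 CPM and did not pass. The inflammatory caspase CASP1 differed by -0.99 ± 0.23. RIPK1 (-0.95 ± 0.05) and BAK1 (-0.99 ± 0.05) lie on chromosome 6 and stood at -0.35 and -0.39 against their neighbours. The survival factor BCL2L1 was higher (0.70 ± 0.10).

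Of 18 NF-κB pathway and target genes, 10 were lower and 3 were higher, with a median of -0.31. VCAM1, a leukocyte adhesion molecule, was at 15.1, 14.4 and 13 CPM in shCTRL and 0.0523, 0.0612 and 0 CPM in shINCA1, a ratio of 377 (95% exact interval 173 to 1028). ICAM1, its relative, went from 1.37 to 0.096 CPM (-3.83 ± 0.94). The coactivator BCL3 (-0.93 ± 0.09) and the receptor IL1R1 (-0.97 ± 0.10) were lower, and TNFAIP2, on chromosome 14, was higher (0.78 ± 0.06, and 0.16 against its neighbours). Against neighbours 8 of the 18 were lower and 2 were higher, with a median of -0.15.

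Complement genes were mostly lower, with 10 of 16 lower, 4 higher and a median of -3.00 with IFNγ beside -0.25 without. Without IFNγ, 8 of the 16 were already lower and 2 were higher. The test of the change called only 1 of them, C1R. C3, the central component, was at 18.3, 17.8 and 16.4 CPM in shCTRL and 2.13, 1.61 and 1.63 CPM in shINCA1 (-3.29 ± 0.13). The classical-pathway proteases C1R and C1S went from 12.4 to 1.28 CPM (-3.28 ± 0.15) and from 19.9 to 3.03 CPM (-2.72 ± 0.19). The regulators CFI (4.56 to 0.0174 CPM) and SERPING1 (7.15 to 0.529 CPM) were lower too. Higher by less were the late component C5 (0.42 ± 0.13), C1RL (0.38 ± 0.08) and the membrane inhibitor CD55 (0.41 ± 0.07). The call of C5 was lost without shCTRL IFNγ replicate 1 or shINCA1 IFNγ replicate 1 or 2 (edgeR adjusted p up to 0.0725). CFD, the other higher gene, kept its call in only 4 of 12 fits with a library left out (edgeR adjusted p up to 0.143). C4A was at 2.86, 9.99 and 9.29 CPM in shCTRL and was not counted in any shINCA1 library (at least 132-fold lower), and as a near-identical copy of C4B its counts are uncertain.

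Outside the interferon programme, the extracellular matrix differed strongly in both directions. Of 32 collagen genes, 15 were lower and 10 were higher, with 8 at 2-fold or more each way. COL1A2, a chain of fibrillar collagen I, was at 47.1, 45 and 41.8 CPM in shCTRL, while all shINCA1 libraries were at 0 (at least 795-fold lower). COL5A2 was at 138, 133 and 129 CPM and 2.95, 2.26 and 1.7 CPM (-5.85 ± 0.16), and COL6A3 at 71.1, 73.6 and 74.7 CPM and 2.37, 2.35 and 2.09 CPM (-5.01 ± 0.14). Partner chains of the same collagens differed less, with COL1A1 at -0.34 ± 0.10 (edgeR adjusted p = 0.0505 without shINCA1 IFNγ replicate 1), COL6A1 at -1.30 ± 0.06 and COL6A2 at -0.81 ± 0.07. In the other direction COL17A1, the transmembrane collagen of hemidesmosomes, was at 4.67, 4.86 and 4.64 CPM in shCTRL and 359, 363 and 349.8 CPM in shINCA1 (6.24 ± 0.05, edgeR adjusted p = 2.96e-15). COL11A1 went from 0.308 to 9.999 CPM (4.97 ± 0.20) and the basement membrane chain COL4A3 differed by 2.99 ± 0.37.

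Of 31 matrix glycoproteins and proteoglycans, 17 were lower and 9 were higher. Fibronectin, FN1, was at 329.7, 362 and 352 CPM in shCTRL and 65.8, 65.3 and 65.1 CPM in shINCA1 (-2.41 ± 0.05). TGFBI, a TGFβ-induced adhesion protein, was at 1411, 1404 and 1376 CPM and 498, 473 and 467 CPM (-1.54 ± 0.03), and osteopontin, SPP1, differed by -1.56 ± 0.04. The hyaluronan-binding proteoglycan VCAN went from 143 to 20.6 CPM (-2.80 ± 0.08), and the link protein HAPLN1, which ties such proteoglycans to hyaluronan, from 23.1, 23.1 and 21.4 CPM to 0 in all shINCA1 libraries (at least 401-fold lower). The hyaluronan synthases went the opposite way, HAS3 from 46.8 to 223 CPM (2.25 ± 0.19) and HAS2 by 2.70 ± 0.18, as did the hyaluronan receptor CD44 (0.53 ± 0.02). Thrombospondin THBS1 was at 697, 697 and 699 CPM and 1413, 1412 and 1401 CPM (1.01 ± 0.02), and THBS2, on chromosome 6, was lower (-2.31 ± 0.13, and -1.51 against its neighbours). GPC3, a cell-surface proteoglycan, was higher by a ratio of 139 (95% exact interval 47.1 to 676).

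Integrin and laminin subunits differed in both directions. Of 27 tested, 10 were lower and 12 were higher, with a median of 0.08. Lower were LAMA4, a laminin chain of mesenchymal and vascular matrix, at 266, 277 and 245 CPM and 21.1, 22.6 and 24 CPM (-3.54 ± 0.06), and the fibronectin receptors ITGB3 (-3.69 ± 0.15), ITGA4 (-1.88 ± 0.07) and ITGAV (-1.24 ± 0.06). LAMA4 lies on chromosome 6 and stood at -2.92 against its neighbours. Higher was ITGB4, the integrin of hemidesmosomes, at 74.7, 70.4 and 68.1 CPM and 379, 389 and 363 CPM (2.41 ± 0.05). Its partner ITGA6 differed by 0.56 ± 0.04, and the epithelial laminin chains LAMA3 (3.39 ± 0.23), LAMB3 (1.79 ± 0.07) and LAMA5 (2.05 ± 0.08) were on the same side.

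Of 27 proteases and their inhibitors, 10 were lower and 13 were higher. ADAM12 went from 149.8 to 48.3 CPM (-1.63 ± 0.03). The plasminogen activator PLAU was lower (-0.90 ± 0.06) and its receptor PLAUR higher (1.06 ± 0.04). The gelatinase MMP2 was higher (0.86 ± 0.03) and its activator MMP14 lower (-0.43 ± 0.05). Among 22 cadherins and desmosomal cadherins, 7 were lower and 9 were higher. PCDH17, PCDH10 and PCDH7, protocadherins of neural cells, were nearly absent from shINCA1: PCDH17 went from 34.6 to 0.321 CPM (-6.73 ± 0.12), and PCDH10 and PCDH7 were lower by ratios of 582 (95% exact interval 307 to 1274) and 775 (95% exact interval 265 to 3759). CDH13, a cadherin without an intracellular domain, went from 83.5 to 181 CPM (1.12 ± 0.03, and 0.59 against its neighbours), and CDH2, N-cadherin, differed by 0.38 ± 0.03.

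**Figure D3:**
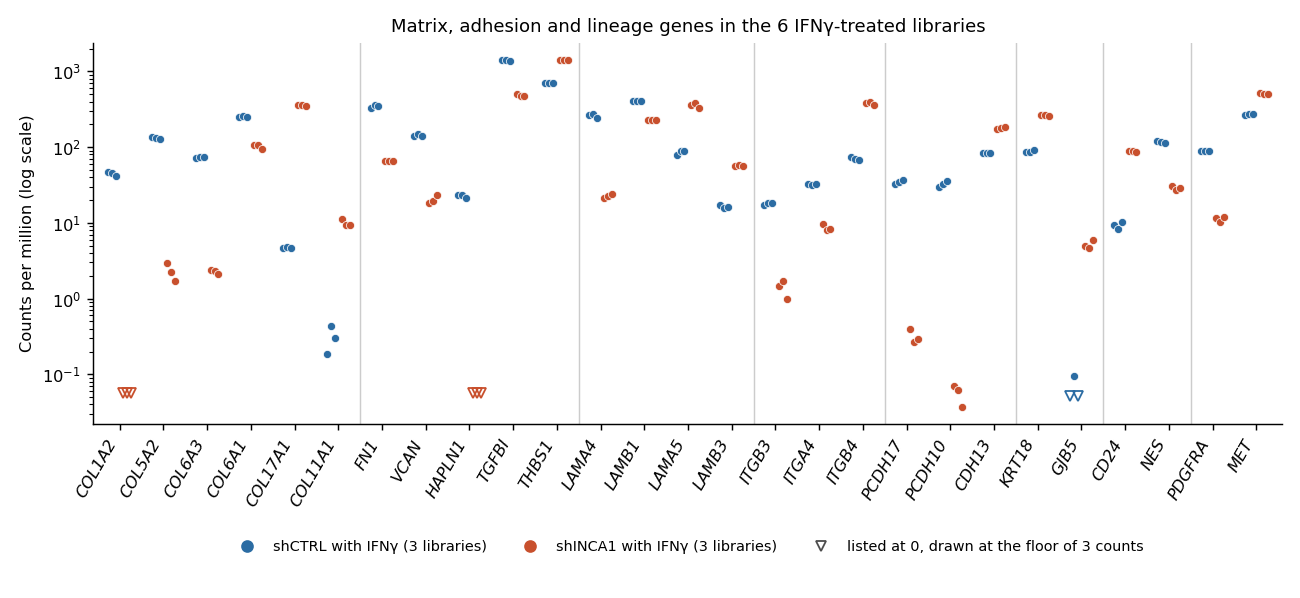
Each point is 1 IFNγ-treated library and each column 1 gene, with blue for shCTRL and orange for shINCA1 and with CPM on a log axis; open triangles are libraries listed at 0, drawn at the floor of 3 counts. COL17A1, ITGB4, KRT18 and CD24 lie higher in shINCA1, while COL1A2, HAPLN1, PCDH17 and PDGFRA lie lower. In all 27 genes the points of the 2 lines do not overlap, but the genes were chosen by hand with their values known. Over all tested genes, the shINCA1 libraries lay wholly below in 33.8% and wholly above in 32.7%.

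Among epithelial and junction genes more were higher than lower: 11 of 20 were higher and 3 were lower, with a median of 0.68 with IFNγ and 0.48 without. KRT18, a keratin of simple epithelia, was at 86.1, 86.5 and 91.3 CPM in shCTRL and 263, 262 and 261 CPM in shINCA1 (1.57 ± 0.04). KRT15 went from 4.69 to 22.7 CPM (2.28 ± 0.12), KRT80 differed by 0.69 ± 0.03, and the connexin GJB5 was higher by a ratio of 150.1 (95% exact interval 68.7 to 410.1). GJA1, the main connexin of astrocytes, was lower (-0.95 ± 0.04) and stood at -0.40 against its chromosome 6 neighbours. The defining epithelial genes EPCAM and CDH1 were at most 0.199 and 0.167 CPM in the 6 libraries.

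Glial and neural genes were split, with 13 of 24 lower, 8 higher and a median of -0.36. NES, the intermediate filament of neural progenitors, was at 119, 116 and 112 CPM in shCTRL and 30.8, 26.9 and 29 CPM in shINCA1, 4 times lower by the means, and the radial glial lipid-binding protein FABP7 went from 72.8 to 18.6 CPM (-1.96 ± 0.15). CD24, a surface glycoprotein of neural and epithelial cells, was at 9.48, 8.36 and 10.2 CPM and 88.5, 88.4 and 87.4 CPM (3.24 ± 0.06), and the neural adhesion molecule L1CAM went from 7.48 to 39.8 CPM (2.41 ± 0.08). The labelled cell type was checked on 9 glial and glioma markers. VIM (2565 and 1917 CPM), CD44, SOX2 and SOX9 were well above the floor in both lines, whereas GFAP (0.989 and 0.476 CPM), S100B and OLIG2 were low. Leukocyte markers summed to 13.8 to 15.3 CPM in shCTRL and 11.4 to 13.1 CPM in shINCA1, most of it CD68, with 9 of 15, among them PTPRC, CD3E and CD4, at 0 in all 6 libraries. Endothelial markers summed to 0.658 to 0.934 CPM and 0.870 to 1.61 CPM, with PECAM1 and CLDN5 at 0. Epithelial markers summed to 90.3 to 96.3 CPM in shCTRL and 268.3 to 269.7 CPM in shINCA1, nearly all of it KRT18, and the part of these sums in the results was not tested.

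Receptor tyrosine kinases were mostly higher, with 18 of 27 higher, 8 lower and a median of 0.41. PDGFRA, the growth factor receptor of oligodendrocyte precursors, was lower, at 90.2, 89.1 and 89.2 CPM in shCTRL and 11.6, 10.3 and 12 CPM in shINCA1 (-2.98 ± 0.07). MET, the receptor of hepatocyte growth factor, was at 268, 272 and 274 CPM and 511, 502 and 509 CPM (0.90 ± 0.03), and IGF1R differed by 0.65 ± 0.03 (0.41 against its neighbours) and EPHA2 by 1.10 ± 0.11. Lower besides PDGFRA were EPHA4 (-1.71 ± 0.10), the collagen receptor DDR2, from 5.55 to 0.642 CPM (-3.10 ± 0.26), and KIT, which was at 0.498, 0.596 and 0.199 CPM in shCTRL and at 0 in all shINCA1 libraries (at least 7.68-fold lower). EGFR, on chromosome 7, was higher (0.75 ± 0.07) but stood at 0.08 against its neighbours.

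Ligands of the TGFβ and WNT families included large single steps without a shift of the lists. Of 32 TGFβ and BMP genes, 10 were lower and 10 were higher, with a median of -0.01. BMP7 was at 10.6, 9.58 and 10.003 CPM in shCTRL and 107, 108 and 102 CPM in shINCA1 (3.40 ± 0.04, edgeR adjusted p = 5.74e-13), and BMP4 at 4.44, 5.27 and 5.53 CPM and 67.2, 67.7 and 67.5 CPM (3.73 ± 0.07). The BMP antagonist NOG was on the same side (3.50 ± 0.25), as was the receptor TGFBR2 (0.88 ± 0.03), while BMPR2 was lower (-0.84 ± 0.04). Of 27 WNT genes, 11 were lower and 10 were higher. The WNT antagonist DKK1 was at 25.6, 22.3 and 25.8 CPM and 142, 139 and 142 CPM (2.52 ± 0.06), the ligand WNT7B went from 0.153 to 7.28 CPM (5.57 ± 0.20), and the receptors FZD4 (-1.60 ± 0.06) and FZD5 (-1.04 ± 0.09) were lower. Of 31 HOX genes, 7 were higher, 5 were lower and 19 did not pass.

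Among YAP targets and AP-1 and early growth genes, 13 of 24 were higher and 3 were lower, with a median of 0.56. ANKRD1, a YAP target, was at 143, 140.4 and 145 CPM in shCTRL and 518, 499 and 516 CPM in shINCA1 (1.84 ± 0.03). Without IFNγ its difference was 0.91, and the change was called (0.93 ± 0.04, edgeR adjusted p = 3.95e-07). CTGF (0.88 ± 0.04), CYR61 (0.71 ± 0.03) and the AP-1 member FOSL1 (0.82 ± 0.06) were higher as well.

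Cell cycle genes did not share a direction, with 11 of 33 lower, 10 higher and a median of -0.04. Of the G1 cyclins, CCND1 was higher, at 145, 144 and 150.04 CPM in shCTRL and 391, 377 and 372 CPM in shINCA1 (1.37 ± 0.03), as was CCND2, from 6.37 to 48 CPM (2.92 ± 0.09), and CCND3, on chromosome 6, was lower (-0.39 ± 0.04) but stood at 0.22 against its neighbours. The S-phase cyclin CCNA2 (-0.72 ± 0.03) and the proliferation marker MKI67 (-0.73 ± 0.05) were lower, and stood at -0.37 and -0.28 against their neighbours. The cyclin CCNE2 (0.57 ± 0.05) and the replication licensing genes CDC6 (0.34 ± 0.03) and MCM2 (0.17 ± 0.03) were higher. MCM3, which loads with MCM2, lies on chromosome 6 and was lower (-0.57 ± 0.02, and -0.10 against its neighbours).

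Hypoxia and glycolysis genes leaned the other way from the interferon genes, with 20 of 26 higher, 2 lower and a median of 0.33 with IFNγ and 0.40 without. CA9, the carbonic anhydrase known as a hypoxia marker, was at 29.4, 26.6 and 21 CPM in shCTRL and 238, 233 and 227 CPM in shINCA1 (3.18 ± 0.10). NDRG1 (1.54 ± 0.07), the glycolytic enzyme ENO2 (1.32 ± 0.05) and the glucose transporter SLC2A1 (0.70 ± 0.03) were higher. GAPDH had means of 8904 and 8901 CPM and did not pass.

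Of 25 cholesterol synthesis and fatty acid genes, 15 were lower and 3 were higher, with a median of -0.26. HMGCS1 was at 82.8, 85.8 and 79.7 CPM in shCTRL and 23.4, 25.5 and 22.6 CPM in shINCA1 (-1.80 ± 0.08). MSMO1 differed by -1.19 ± 0.05 (-0.79 against its neighbours) and SQLE by -0.72 ± 0.03. HSD17B7, a later step, fell from 7.53, 7.1 and 8.01 CPM to 0 in all shINCA1 libraries (at least 135-fold lower). Of 21 unfolded protein and heat shock genes, 11 were lower and 3 were higher: the chaperone HSPA5 (-0.67 ± 0.02), ATF4 (-0.71 ± 0.04) and HERPUD1 (-0.69 ± 0.04) were lower and PPP1R15A was higher (0.73 ± 0.05). Of 15 p53 target genes, 7 were higher, among them GDF15 (3.03 ± 0.16) and CDKN1A (0.49 ± 0.04), and 5 were lower, among them PMAIP1 (-0.73 ± 0.04) and TP53INP1 (-1.53 ± 0.13). Against neighbours 7 of the 15 were higher and 2 were lower, with a median of 0.17, and CDKN1A, on chromosome 6, stood at 1.07. Of 5 metallothionein genes 1 was lower, MT1E, which was at 3.97 CPM in shCTRL and at 0 in every shINCA1 library, and 1 was higher, MT3, which was at 0 in every shCTRL library and at 0.61, 0.326 and 0.37 CPM in shINCA1 (at least 8.33-fold higher). HNRNPH1, an RNA-binding protein of the splicing list (4 of 21 higher and 8 lower), differed by -0.07 ± 0.02 (edgeR adjusted p = 0.00502, and 0.116 with upper-quartile scaling), and HNRNPH2 (-0.61 ± 0.03, and -0.39 against its neighbours) and HNRNPF (0.47 ± 0.02) differed in opposite directions.

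Some genes were present in one line and at 0 in the other. With IFNγ, 47 genes with at least 1 CPM in shCTRL were at 0 counts in all 3 shINCA1 libraries, and 39 of them were also at 0 in all untreated shINCA1 libraries. The reverse held for 7 genes, 4 of them also at 0 in untreated shCTRL. After COL1A2 and HAPLN1, the group included the synaptic adhesion gene LRRTM2, at 16.4, 16.7 and 15.4 CPM in shCTRL and at least 288-fold lower. It also included the zinc finger gene ZNF518B (at least 144-fold), the PDZ protein gene PICK1 (at least 143-fold), PDZRN3 (at least 129-fold), the synaptic vesicle gene SYNGR1 (at least 90.9-fold), SALL3 (at least 85.3-fold) and SHANK1 (at least 75.9-fold). Of the genes with the largest steps up, PDE3B differed by 5.67 ± 0.45, the neurotrophin receptor NTRK3 by 5.18 ± 0.72 and RIMS1, a presynaptic scaffold, by 4.96 ± 0.43. Pooled counts of SAMD3 gave a ratio of 57.4 (95% exact interval 26.1 to 158) in favour of shINCA1, as did the cadherin CDH23, with 78.2 (95% exact interval 35.6 to 214). Among genes with means of at least 20 CPM in both lines, TINAGL1, a basement membrane protein, was at 19.1, 23.7 and 23.4 CPM and 217, 212 and 198 CPM (3.24 ± 0.09), PARM1 differed by 2.29 ± 0.06, PDE1C by 2.25 ± 0.04 and the potassium channel KCNN4 by 2.19 ± 0.05. NNMT, which methylates nicotinamide, was at 169.9, 169 and 163 CPM and 37.4, 36.7 and 36.9 CPM (-2.18 ± 0.07), and SESN3 differed by -2.08 ± 0.05.

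The chromosome of a gene went with its direction. Of 812 tested genes on chromosome 6, 578 (71.2%) were lower and 35 (4.31%) were higher, with a median of -0.63 with IFNγ and -0.60 without. Of 483 on chromosome 14, 310 (64.2%) were higher, with medians of 0.45 and 0.46. The medians of chromosomes 15 (0.24), 20 (0.19), 16 (0.15), 7 (0.13) and 17 (0.11) were also above 0.1, that of chromosome 3 was -0.11, and the others lay between -0.10 and 0.07. With and without IFNγ the medians of a chromosome differed by at most 0.038. Against neighbouring genes, 34 of 40 antiviral genes were still lower, with a median of -0.99, and 13 of 17 checkpoint genes, with a median of -0.81.

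**Figure D4:**
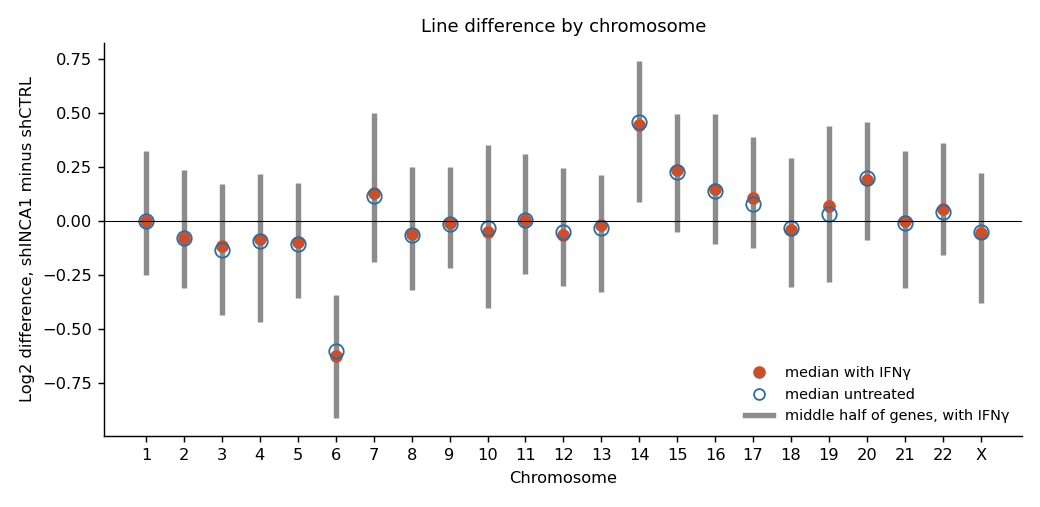
For each chromosome, the filled point is the median log2 difference (shINCA1 minus shCTRL) of its tested genes with IFNγ, the open circle the median without IFNγ, and the bar the interquartile range of its genes with IFNγ. Chromosome 6 lies at -0.63 and chromosome 14 at 0.45, and open and filled points nearly coincide on every chromosome.

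The shares of lower and higher genes were also taken by promoter core. Of 12085 tested genes with a RefSeq promoter, 31.9% were lower and 29.1% were higher with IFNγ. Of 295 with an ISRE core, 137 (46.4%) were lower and 55 (18.6%) were higher, with a median of -0.19 with IFNγ and -0.16 without. Of 680 with a GAS core, 228 (33.5%) were lower and 185 (27.2%) were higher, close to the 11135 genes with neither core (31.5% and 29.4%). Both cores stood in 25 tested promoters, of which 14 were lower and 4 were higher, with a median of -0.41. By list, 18 of 32 antiviral genes and 5 of 12 class I genes with a promoter held an ISRE core, whereas 0 of 7 class II genes held either core. These counts describe the letters and no difference between the groups of promoters was tested.

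The difference between the lines was largely there without IFNγ. Of the 9291 genes called with IFNγ, 7750 (83.4%) were also called in the same direction without it, which was 86.4% of the 8970 genes called there, 46 were called in the opposite direction and 1495 were not called. These 2 comparisons share no library, but they share the fit. The test of the change itself called 270 of 15769 genes (1.71%), 97 (0.615%) with a higher and 173 (1.1%) with a lower line difference under IFNγ. Of these 270, 51 differed between the lines with IFNγ and not without, and 37 differed with opposite signs. Genes listed at 0 in every untreated library, such as GBP4, CXCL9, CIITA and IDO1, had no line difference without IFNγ to compare. For such genes the test could not decide whether the line difference changed. Of the 138 genes of the interferon-related lists, 21 had a lower and 12 a higher line difference with IFNγ. On the lower side were TAP1 (-1.11 ± 0.04), JAK2 (-1.04 ± 0.11), SOCS1 (-2.05 ± 0.32), IFI30 (-1.13 ± 0.06) and HLA-E (-0.57 ± 0.06), and from other lists WARS (-0.86 ± 0.03) and FAS (-0.87 ± 0.12). On the higher side were GBP2 (0.55 ± 0.05), APOL6 (2.28 ± 0.10) and, from none of the lists, the ADP-ribosyltransferase gene PARP10 (1.88 ± 0.23). In each of these genes the lines lay further apart without the cytokine on the log2 scale, though not in CPM. PARP10, for example, had means of 4.89 and 0.236 CPM without IFNγ and 21.4 and 3.78 CPM with it. Outside these lists, HAPLN3, another link protein, was at 18.3, 20.05 and 18.6 CPM and 0.349, 0.306 and 0.426 CPM with IFNγ and at 1.64 and 0.551 CPM without (-4.15 ± 0.24). ADGRE2, an adhesion receptor, went the other way (1.72 ± 0.14), as did NNMT (0.86 ± 0.10).

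**Figure D5:**
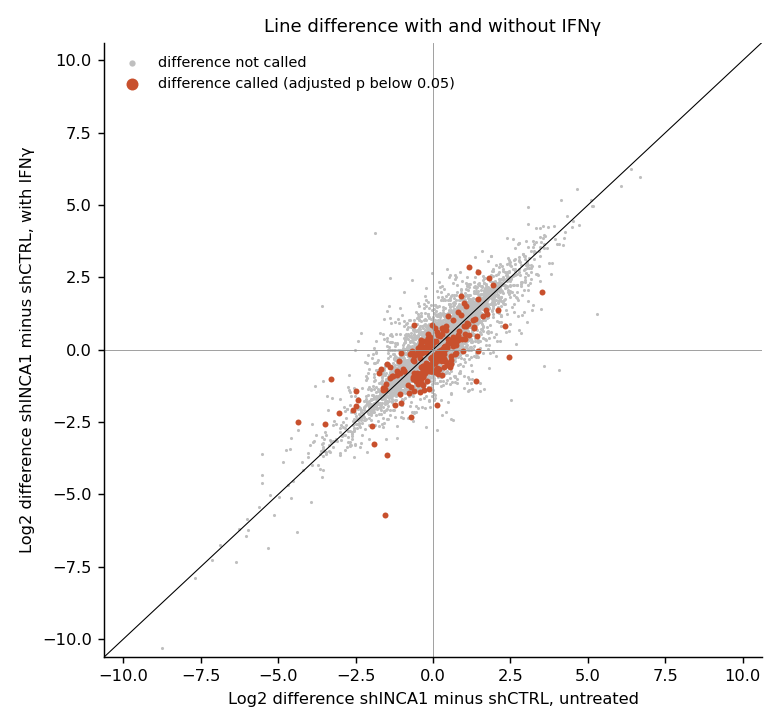
Each point is 1 tested gene with all 4 group means above the floor of 3 counts per library (15025 genes); the x axis is the log2 difference between the lines (shINCA1 minus shCTRL) without IFNγ and the y axis the same with IFNγ. Orange points are the 260 drawn genes whose line difference changed with the cytokine, and most other genes lie along the diagonal line of equal differences.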

How the data were processed

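Polyadenylated RNA of 12 libraries in 4 groups of 3 was measured. The deposited table holds estimated counts per gene symbol, whole numbers that the authors did not scale between libraries. The tools named in the submitters' processing notes are HISAT2, StringTie, Trimmomatic and FastQC, with build hg19. How reads were counted, and with which annotation and strand setting, is not stated. Low values pile up at multiples of 3 (5790 values of 3 and 4120 of 6, against 1317 of 4), so 1 fragment may be worth several units, and the 95% exact intervals and the floor of 3 counts per library (0.0523 CPM in shCTRL and 0.0561 CPM in shINCA1 with IFNγ) cover counting error only and are too narrow.

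Samples were grouped by titles and treatment labels, and every column was mapped. Counts were fitted with edgeR 4.0.16 in R 4.3.3: filterByExpr on the 4 groups, TMM factors, and quasi-likelihood tests with all 12 libraries in 1 fit (8 residual degrees of freedom). The two-sided p-values were adjusted by Benjamini-Hochberg over 15769 genes, with a threshold of 0.05. The contrasts were shINCA1 minus shCTRL with IFNγ, the same without IFNγ, and the difference of these. Differences are fitted log2 values with SE (the value over the square root of F). Where all libraries of a group were at 0, folds are lower bounds set against the floor, and where a group had 9 counts or fewer, the ratio of pooled counts is given. The fit was tested on simulated counts in which few genes changed, equally many up and down. The data had many more called genes, so the simulation did not test the scaling in that setting.

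The 37 gene lists and the members were chosen with earlier results of these data known. Genes were named by a rule: CD274, PDCD1LG2, JAK2, IRF1, IDO1, HNRNPH1 and INCA1; the 12 largest differences each way at a mean of 1 CPM or more and the 8 each way at 20 CPM or more in both lines, without overlap of libraries; up to 4 members of each list by p; and the 6 largest changes of the line difference each way at 1 CPM or more. Y-linked genes were left out, and a few others it picked are not reported here. Other list members that are named were chosen after their values were seen. Symbols were joined to RefSeq GRCh38.p14 for chromosome, order and promoters alone (26673 of 27685 matched), and the file's own coordinates were not used. For the position check, the median difference of 25 tested genes on each side was subtracted.

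Alternatives were DESeq2 (1.42.0) size factors, upper-quartile factors, the DESeq2 Wald test, limma-voom (limma 3.58.1), no filter or one of 5 CPM in 3 samples, a replicate block, a fit of 2 groups, a stricter adjusted p (0.01), a 2-fold minimum, leaving out each library, and the position check.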

Additional observations from a re-analysis of the deposited data

Results flagged for a closer look

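For 39 genes that the naming rule picked, the difference between the lines with IFNγ differed from that without it, by the edgeR quasi-likelihood test of the change (Benjamini-Hochberg adjusted p below 0.05, 3 libraries in each of 4 groups). Values are log2 changes of the line difference. Negative values mean that shINCA1 stood lower relative to shCTRL with IFNγ than without.

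In interferon-induced and immune genes the change was -2.15 for IFI44L, -2.05 for SOCS1, -1.37 for C1R, -1.13 for IFI30, -1.11 for TAP1, -1.04 for JAK2, -0.86 for WARS, -0.68 for IFIT3, -0.57 for HLA-E, -0.53 for TNFAIP2, -0.50 for TAP2, -0.46 for SP110, -0.42 for CXCL16 and -0.40 for PSMB8. It was of the other sign in GBP2 (0.55), PARP10 (1.88) and APOL6 (2.28), whose lines lay further apart on the log2 scale without the cytokine. The rule did not pick every interferon-related gene that was called: over the 138 tested genes of those lists, 21 changed to the lower and 12 to the higher side, and the latter also held ERAP2 (0.94), NLRC5 (0.97), IFIT1 (0.69) and NMI (0.45). PARP9 (1.02), DTX3L (0.79) and HAS2 (1.25) also changed to the higher side, and HLA-B (-1.14), FAS (-0.87), ITGA6 (-0.48), IFIH1 (-0.44) and CD47 (-0.37) to the lower. For 5 genes with 9 counts or fewer in a group, only the adjusted p is given: GBP1 (2.096e-06), CORO7-PAM16 (0.0002344), OAS1 (0.0144), BATF2 (0.01581) and TRIM22 (0.04162). CORO7-PAM16, a read-through gene that shares exons with its neighbours and is therefore uncertain in the counts, was at 1.89, 1.25 and 1.51 CPM in shCTRL and at 0 in all shINCA1 libraries with IFNγ, and at 1.97 and 2.19 CPM without.

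Cell death, growth and adhesion genes changed by -0.45 (BAK1), -0.34 (CCND1), -0.31 (CDKN1A), -0.31 (PLAUR) and -0.22 (MET). The link protein HAPLN3 changed by -4.15 and ADAP1 by -2.72. ADAP1 had means of 4.55 and 3.79 CPM with IFNγ, where the libraries overlapped, and 0.404 and 2.25 CPM without. Positive changes were found for SQLE (0.23), KRT80 (0.29), PDE1C (0.32), CYR61 (0.38), THBS1 (0.38), SOX4 (0.42), SESN3 (0.49), NNMT (0.86), ANKRD1 (0.93) and ADGRE2 (1.72).

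These calls differed in how far they rested on single libraries. When each of the 12 libraries was left out in turn, IFIT3 and TRIM22 were still called in 1 of 12 fits, MET in 2, IFI44L and SQLE in 5, CXCL16, CDKN1A and PLAUR in 7, SP110 in 10, and BATF2 and PDE1C in 11. BATF2 was lost without untreated shINCA1 replicate 3 (adjusted p = 0.0582), and PDE1C without shINCA1 IFNγ replicate 3 (0.0832). SP110 was lost without untreated shINCA1 replicate 3 or shINCA1 IFNγ replicate 2 (at most 0.0533). The other 28 genes kept the call in all 12 fits. The highest adjusted p over the fits was 0.137 for IFIT3, 0.11 for TRIM22, 0.129 for MET, 0.087 for IFI44L and 0.0897 for SQLE.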

How the results depend on the processing

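The counts with IFNγ (4529 higher and 4762 lower in shINCA1) stayed within 1.5 times under 10 of 11 settings that keep all libraries, with 3622 to 5000 higher (an adjusted p of 0.01 and upper-quartile factors) and 3913 to 4883 lower (the 5 CPM filter and the DESeq2 Wald test). A minimum fold of 2 (glmTreat), which asks for a larger difference by construction, left 571 higher and 585 lower with IFNγ, 529 and 583 without it, and 3 and 3 for the change of the line difference. The count of changed line differences depended most on the setting: the DESeq2 Wald test gave 192 higher and 317 lower, and an adjusted p of 0.01 gave 42 and 71, beside 97 and 173, and the cause of the DESeq2 count was not tested. Leaving out 1 library gave 4177 to 4598 higher and 4352 to 4837 lower with IFNγ, 3858 to 4458 and 4326 to 4770 without it, and 57 to 92 and 95 to 154 for the change. The counts of 57 came without shINCA1 IFNγ replicate 3, and of lower changes 95 came without untreated shINCA1 replicate 3, 100 without IFNγ replicate 2 of either line, 112 without untreated shCTRL replicate 2 and 115 without shCTRL IFNγ replicate 1.

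The replicate numbers are not a stated pairing, and deviations of same-numbered shCTRL and shINCA1 libraries with IFNγ had correlations of -0.00205, -0.0251 and 0.0193. With the number as a replicate block, the counts were 4468 and 4718 with IFNγ, 4280 and 4619 without it, and 88 and 149 for the change, and the call of none of 172 named genes changed. Over these 172 genes, 66 fell short of the threshold under the minimum fold, and scaling, filters and the DESeq2 test changed no direction. CDH5, an endothelial gene, lost its call with limma-voom (adjusted p = 0.109) and without shINCA1 IFNγ replicate 2 (0.0534), and HNRNPH1 with upper-quartile factors (0.116). INCA1, which was not called, ranged from -0.078 (without shINCA1 IFNγ replicate 1) to 0.832 when 1 library was left out. Against neighbouring genes, PSMA3 turned to -0.12, PSMB1 to 0.19 and SRSF6 to -0.089. Differences near the median SE of 0.0773 are at the limit of these libraries.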

Other observations

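In some genes the 3 libraries of a group lay far apart. STAT3 was at 393, 383 and 241 CPM in the shCTRL libraries with IFNγ, and AK3, an adenylate kinase gene near CD274, was at 111, 113 and 43.5 CPM in shCTRL and 112, 109 and 112 CPM in shINCA1. SOD2, a target of NF-κB, was at 129, 121 and 125 CPM in shCTRL and 122, 64.5 and 62.5 CPM in shINCA1. VEGFA, the angiogenic growth factor, was at 33.4, 68.7 and 60.8 CPM and 64.8, 64.1 and 65.2 CPM, and the complement regulator CD59 at 224, 223 and 222 CPM and 216, 180.3 and 80.8 CPM.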
